A study of Mus musculus with 69 samples.

Results

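The skin of FVB/N × Spret/Ei F1 hybrid mice was compared between 24 h after TPA and the untreated state, with 2 arrays at 24 h and 4 untreated arrays out of the 69 arrays of the series. The arrays were chosen by their labelled genotype and time, and 18820 genes represented by a probe set with a single gene symbol were tested. TPA (12-O-tetradecanoylphorbol-13-acetate) is a phorbol ester that tumour promotion protocols apply to mouse skin. F1 mice are the first cross of FVB/N, an inbred laboratory strain of Mus musculus, with Spret/Ei, an inbred strain of Mus spretus, so each F1 animal carries both genomes. All mice were 8 weeks old, and RNA came from dorsal skin. The treated backs had been shaved 2 days before a single dose of TPA in acetone. Further groups entered as comparisons: F1 skin at 12 h (2 arrays), FVB/N skin at 24 h and untreated (3 arrays each), and Spret/Ei skin at 24 h and untreated (2 arrays each). No array used here is labelled as vehicle alone, so effects of acetone, of handling and of TPA cannot be told apart, and the labels do not say whether the untreated backs were shaved. Nothing in the labels says that each array came from its own animal, so the p-values below reflect only how much these arrays vary among themselves, and the small number of arrays limits the precision.

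TPA stands in for diacylglycerol, the natural activator of protein kinase C, and keeps the kinase active. In mouse epidermis this is known to set off inflammation within hours, a wave of keratinocyte division, and thickening of the epidermis in the following days. Activated or wounded epidermis is known to make stress keratins, small proline-rich proteins, antimicrobial proteins and cytokines that resting epidermis makes little of.

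Every sample was dorsal skin, a mix of cell types in which more cells of a type and more RNA per cell cannot be told apart. Keratinocyte markers were high in all 6 arrays: Krt5, the basal keratin, lay between 12.25 and 12.57 on the log2 scale, and Krt1, the suprabasal keratin, between 12.30 and 12.54. Some arrays stood apart in transcripts of other tissues or of the hair cycle. Untreated array 1 and 24 h array 1 were rich in growing-hair transcripts. Their mean over 12 inner root sheath genes was 9.35 in 24 h array 1 and 9.12 in untreated array 1, against 5.66 in 24 h array 2 and 4.36 to 4.92 in the other 3 untreated arrays. Both 24 h arrays held more of 23 liver transcripts, with means of 8.16 and 6.56, against 5.04 to 5.65 in the untreated arrays and 4.65 to 6.42 in the other 19 F1 arrays. Over 18 skeletal muscle genes the mean was 4.95 and 6.21 at 24 h, against 5.08 to 7.64 in untreated skin. Batches 2 and 3 of the labels each hold 1 treated and 2 untreated arrays: 24 h array 1 with untreated arrays 2 and 4 in batch 3, and 24 h array 2 with untreated arrays 1 and 3 in batch 2.

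At 24 h, 215 genes were higher and 141 lower than in untreated F1 skin. A gene was called changed at a Benjamini-Hochberg adjusted p under 0.05 over all genes in limma, a linear model with moderated variances, and a change of at least 1 log2 unit. The calls made up 1.89% of the genes tested, 1.14% higher and 0.749% lower, and the median change of all genes was -0.003. Of the 356 called genes, 59 were at least 4-fold higher and 8 at least 4-fold lower. All 356 had the same sign of change within batch 2 and within batch 3. Genes were called on the combined change over both batches, so this agreement follows largely from the calling. The share of all genes with a shared sign was not counted. In 352 of the called genes both 24 h arrays lay beyond all 4 untreated arrays, which also held for 32.7% of all genes tested. Across all genes the changes within the separate batches correlated with r = 0.333 (Pearson, over 18820 genes, which are not independent replicates), and their SD was 0.465 in batch 2 and 0.67 in batch 3. The count of calls rested on single arrays: it was 192 without 24 h array 1, 70 without 24 h array 2 and 213 without untreated array 2. Without the 2 hair-rich arrays, an alternative chosen after the data were seen, 196 genes were called. After centring the arrays on their medians the split moved to 225 higher and 93 lower.

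**Figure D1:**
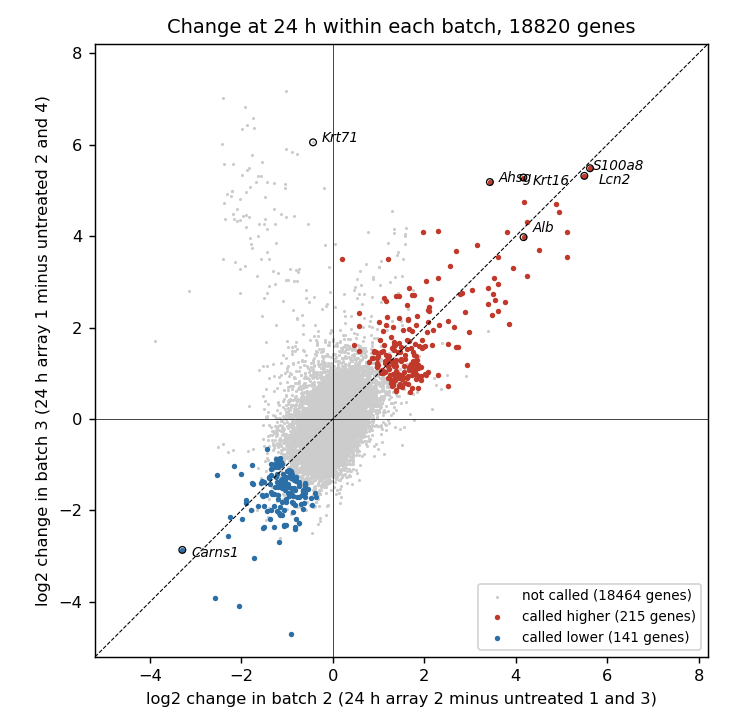
Each point is 1 of 18820 genes, placed by its log2 change (24 h minus untreated) in batch 2 on the x axis and in batch 3 on the y axis. The 215 genes called higher and the 141 called lower are coloured. All lie in the quadrants where the batches share a sign, which calling on the combined change largely ensures. The dashed line marks equal changes, and 7 genes named in the text are circled.

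Most of the mitotic genes measured rose. Of 30 members of a list of them, 25 rose and none fell, where 1.14% of all genes rose, and the list's median change was 1.37. Cdc20 activates the anaphase-promoting complex. Its log2 values were 7.94 and 8.16 in the 24 h arrays, against 6.22, 6.29, 6.59 and 6.69 in the untreated arrays, a change of 1.60 ± 0.23 (SE; limma adjusted p = 3.08e-05), or 3.04-fold. Cenpa, the histone variant that marks centromeres, had 7.73 and 7.83 at 24 h, against 6.14, 6.11, 5.98 and 6.55 in untreated skin, a change of 1.58 ± 0.25 (limma adjusted p = 0.000133). Plk1, a kinase that drives mitotic entry and spindle assembly, had 7.66 and 7.62 at 24 h, against 6.31, 5.87, 5.67 and 6.39 untreated. For these 3 genes every 24 h value was above every untreated value. Bub1b, a spindle checkpoint kinase, rose by 1.55 ± 0.28, and Cenpe, a kinetochore motor, by 1.54 ± 0.29. The 5 members not called were Ttk, Kif23, Ndc80, Anln and Pttg1. The mean over the 30 genes was 7.74 and 8.01 at 24 h, against 6.42, 6.63, 6.39 and 6.94 untreated, so the groups did not overlap. The count was 23 without 24 h array 1 and 21 without the 2 hair-rich arrays, but 3 without 24 h array 2, when the median change was 1.11.

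Genes of DNA replication moved less at this time. Their list had a median change of 0.58. Both 24 h arrays lay above all untreated arrays in 20 of 25 members, where 16.4% of all genes did. A single member was called, where 1.89% of all genes were called. That member was Ccne1, the cyclin of the step into S phase, which had 7.15 and 7.29 at 24 h, against 6.05, 6.03, 6.14 and 6.48 untreated, a change of 1.05 ± 0.22 (limma adjusted p = 0.00292). Gins1, a part of the replicative helicase, passed the p threshold at 1.00 ± 0.26 (adjusted p = 0.0197), just under 1 log2 unit before rounding. Mcm3, another helicase subunit, was at 0.87 ± 0.26 (adjusted p = 0.0574). No member was called without 24 h array 2 or without the 2 hair-rich arrays. Hmmr, a mitotic spindle protein that also binds hyaluronan and was counted with the hyaluronan genes, rose by 1.48 ± 0.27 (adjusted p = 0.000795) and was the single called member of the 8 in that list, a call lost without 24 h array 2.

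Promoter sequences were read for these genes because many mitotic promoters are known to carry a CCAAT box and a cell cycle genes homology region, a site spelled TTTGAA or TTCGAA. RefSeq's windows on GRCm38.p6 run from 250 bases before to 50 bases after the start of the gene, and 26 of the 30 mitosis genes had at least 1. Capitals mark TTTGAA or TTCGAA on either strand and CCAAT on either strand (read as ATTGG on the other strand) in the windows of the 3 mitotic genes above, from chr4:118437294-118437593 on the minus strand for Cdc20, chr5:30666636-30666935 on the plus strand for Cenpa and chr7:122159185-122159484 on the plus strand for Plk1.
Cdc20: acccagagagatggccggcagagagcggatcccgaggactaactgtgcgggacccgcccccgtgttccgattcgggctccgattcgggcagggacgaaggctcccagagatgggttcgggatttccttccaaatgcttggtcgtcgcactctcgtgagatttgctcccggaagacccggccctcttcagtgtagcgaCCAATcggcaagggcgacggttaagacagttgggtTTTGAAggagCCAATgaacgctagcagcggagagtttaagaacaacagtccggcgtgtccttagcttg
Cenpa: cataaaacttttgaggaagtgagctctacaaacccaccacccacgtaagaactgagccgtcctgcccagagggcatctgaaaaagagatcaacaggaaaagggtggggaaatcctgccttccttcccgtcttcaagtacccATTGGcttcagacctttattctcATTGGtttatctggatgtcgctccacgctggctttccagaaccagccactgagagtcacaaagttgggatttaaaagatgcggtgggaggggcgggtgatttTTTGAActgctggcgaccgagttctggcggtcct
Plk1: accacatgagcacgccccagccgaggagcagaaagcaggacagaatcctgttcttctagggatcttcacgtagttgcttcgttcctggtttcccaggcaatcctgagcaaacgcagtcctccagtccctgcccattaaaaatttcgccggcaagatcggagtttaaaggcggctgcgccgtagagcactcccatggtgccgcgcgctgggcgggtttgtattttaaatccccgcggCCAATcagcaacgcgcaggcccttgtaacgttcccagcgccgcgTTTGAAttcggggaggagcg
In the Cdc20 window the TTTGAA match ran from base -18 to base -13 counted from the start (with no base 0), and CCAAT matches lay on both sides of it. In the Cenpa window TTTGAA ran from base 17 to base 22 after the start, with both ATTGG matches before the start. In the Plk1 window TTTGAA ran from base 31 to base 36, and CCAAT ended at base -10. Of 27 mitosis windows, 77.8% held TTTGAA or TTCGAA on either strand, against 17.9% of 28 windows of the DNA replication genes and 19.2% of all 32851 windows. CCAAT was in 74.1% of mitosis windows, 57.1% of replication windows and 37.4% of all windows. Both motifs stood together in 66.7%, 14.3% and 7.52% of the windows in the same order. These are matches of letters and describe the windows; no binding was measured.

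**Figure D2:**
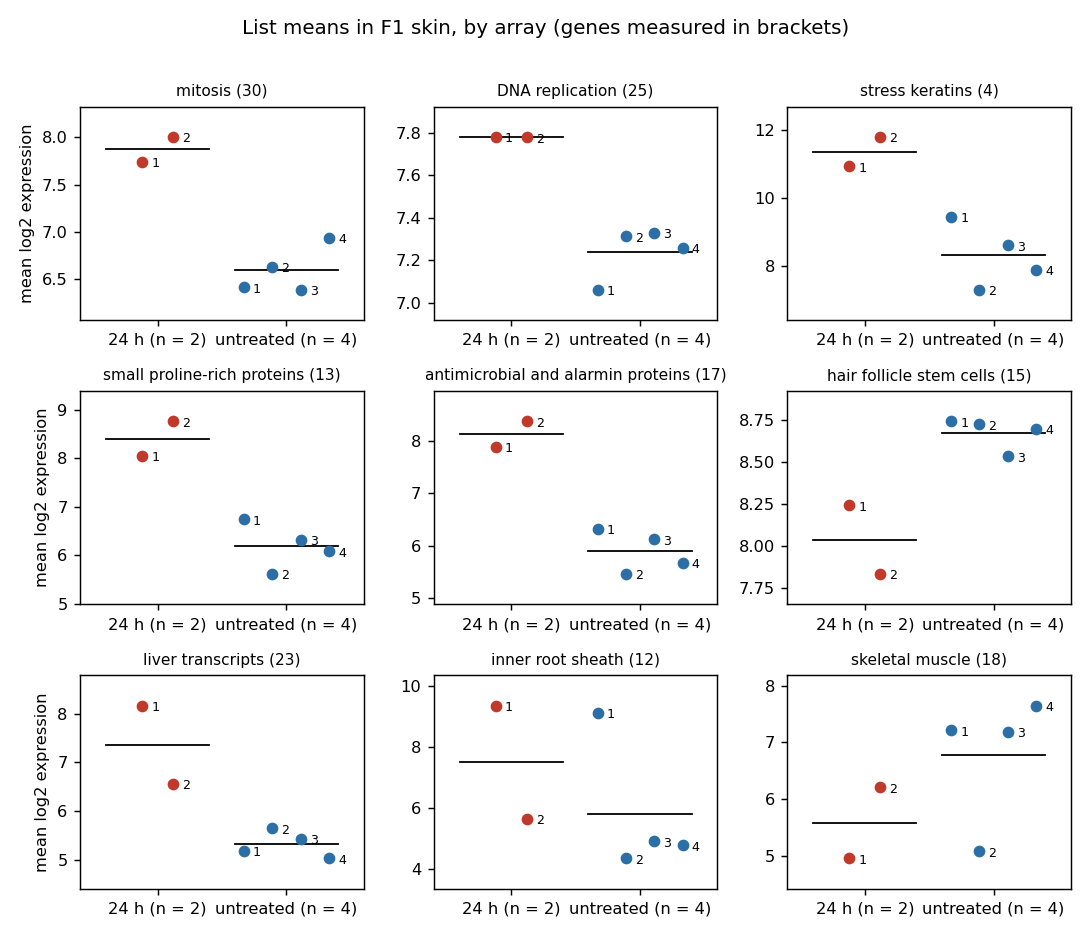
Each panel shows the mean log2 value of 1 gene list in the 2 arrays at 24 h (left) and the 4 untreated arrays (right) of F1 skin, with each point numbered by its array and a line at the group mean. Mitosis, DNA replication, stress keratins, small proline-rich proteins, antimicrobial genes and liver transcripts lie higher in both 24 h arrays than in every untreated array, hair follicle stem cell genes lie lower, and inner root sheath and skeletal muscle genes overlap.

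Stress keratins were among the largest rises. These keratins are known from wounded and hyperproliferative epidermis, where they are made in suprabasal cells. Krt6b had log2 values of 11.45 and 12.53 at 24 h, against 7.46, 5.98, 7.70 and 7.88 untreated, a 26.6-fold rise (4.74 ± 0.80; limma adjusted p = 0.000281). Krt16, its partner in keratin filaments, had 10.79 and 12.13 at 24 h, against 8.80, 5.15, 7.13 and 5.87 untreated, a rise of 4.72 ± 0.78 (adjusted p = 0.00022). Krt6a had 9.40 and 10.21 at 24 h, against 9.37, 6.81, 7.52 and 6.57 untreated, a rise of 2.24 ± 0.51 (adjusted p = 0.00719). Untreated array 1, one of the hair-rich arrays, nearly reached 24 h array 1 for Krt6a and was the highest untreated array for Krt16. Krt17 was not called (0.53 ± 0.54; adjusted p = 0.776). The 3 calls of 4 measured members were kept without the 2 hair-rich arrays, but none was kept without 24 h array 2, and Krt6a was lost without 24 h array 1.

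Genes of the cornified envelope, the cross-linked protein shell of the outermost keratinocytes, split by family. Of 13 small proline-rich protein genes, whose products are cross-linked into the envelope, 9 rose and none fell, where 1.14% of all genes rose. The list median was 2.69. Sprr2d had 10.20 and 11.49 at 24 h, against 6.99, 5.76, 6.96 and 7.27 untreated, a 17.1-fold rise (4.10 ± 0.76; limma adjusted p = 0.000864). Sprr1b had 10.54 and 11.24 at 24 h, against 7.67, 6.81, 7.60 and 7.20 untreated, a rise of 3.57 ± 0.71 (adjusted p = 0.00184). In both genes the 24 h arrays lay more than 2 log2 units above the highest untreated array. Sprr2e rose by 3.27 ± 0.62, Sprr2a1 by 3.12 ± 0.44 and Sprr2f by 3.07 ± 0.58. The Sprr2 genes are close copies of one another, so their probe sets may share signal. The count was 9 without 24 h array 1 and 9 without the 2 hair-rich arrays, but 1 without 24 h array 2, when Sprr2a1 was still called.

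Promoters of 2 members of this family are shown because the family is known for AP-1 sites, the TGANTCA element bound by Fos and Jun proteins, whose activity TPA raises. Capitals mark TGANTCA in the windows chr3:92338890-92339189 on the plus strand for Sprr2d and chr3:92438730-92439029 on the minus strand for Sprr1b.
Sprr2d: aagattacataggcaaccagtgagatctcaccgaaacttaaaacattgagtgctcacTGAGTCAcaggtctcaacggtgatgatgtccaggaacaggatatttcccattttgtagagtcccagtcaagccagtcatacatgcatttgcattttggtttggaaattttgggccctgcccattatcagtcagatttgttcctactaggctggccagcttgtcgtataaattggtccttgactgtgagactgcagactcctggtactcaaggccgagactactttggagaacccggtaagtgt
Sprr1b: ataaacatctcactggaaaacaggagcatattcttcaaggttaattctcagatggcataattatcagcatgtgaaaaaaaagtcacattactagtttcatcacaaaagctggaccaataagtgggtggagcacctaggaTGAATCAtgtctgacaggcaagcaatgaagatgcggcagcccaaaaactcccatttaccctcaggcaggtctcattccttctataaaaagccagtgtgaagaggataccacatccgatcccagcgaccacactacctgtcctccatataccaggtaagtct
The match in the Sprr2d window ran from base -193 to base -187, and that in the Sprr1b window from base -111 to base -105. TGANTCA was in 9 of the 12 windows of this family, against 7.81% of all 32851 windows, and in none of the mitosis or replication windows. TTTGAA or TTCGAA was in 3 of the family's windows. The Fos and Jun genes themselves are in the list of 18 immediate early genes. Of these none rose and 1 fell at 24 h, where 0.749% of all genes fell. That gene was Fosb, with 5.15 and 5.78 at 24 h, against 7.08, 6.03, 7.18 and 7.44 untreated, a change of -1.47 ± 0.42 (limma adjusted p = 0.0464). Its call was kept in 9 of 21 alternatives.

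Stefins, inhibitors of cysteine proteases, rose in 3 of 6 members, where 1.14% of all genes rose. Csta3 rose by 3.69 ± 0.77 (limma adjusted p = 0.00321), Stfa3 by 3.62 ± 0.75 (adjusted p = 0.00292) and Stfa1 by 2.78 ± 0.58 (adjusted p = 0.00321). They too are near-identical copies, and none was called without 24 h array 2. Late cornified envelope genes rose in 2 of 14 members, Lce3c by 2.18 ± 0.53 and Lce1g by 1.19 ± 0.30. The list of suprabasal keratins and other envelope genes had a median change of 0.13 over 20 members, and a single member rose. That gene was Rptn, the envelope protein repetin, with 8.79 and 8.91 at 24 h, against 7.61, 6.90, 6.54 and 6.18 untreated (2.04 ± 0.55; adjusted p = 0.0301). Tgm3, an envelope transglutaminase, was at 1.39 (adjusted p = 0.0957) and Cnfn, an envelope component, at 1.18 (adjusted p = 0.0916). The calls of Lce3c, Lce1g and Rptn were each lost without either 24 h array.

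Basal and hemidesmosome genes had a median change of -0.12 over 14 members. A single member fell: Dst, whose epidermal form anchors keratin to hemidesmosomes, had 8.46 and 8.57 at 24 h, against 9.32, 9.99, 9.41 and 9.65 untreated (-1.08 ± 0.32; limma adjusted p = 0.0488). Among 13 desmosome genes 1 rose, where 1.14% of all genes rose and 0.749% fell. Dsc2, a desmosomal cadherin, had 8.24 and 7.41 at 24 h, against 7.86, 5.95, 5.80 and 5.87 untreated (1.45 ± 0.42; adjusted p = 0.0448), and the groups overlapped at untreated array 1. The call of Dst was kept in 10 of 21 alternatives and that of Dsc2 in 9.

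Antimicrobial and alarmin genes gave 5 of the 12 largest rises. Of 17 measured members 8 rose and none fell, where 1.14% of all genes rose, and the list median was 1.89. Lcn2, an iron-scavenging lipocalin that starves bacteria, had 10.04 and 11.31 at 24 h, against 6.07, 4.20, 5.31 and 4.91 untreated, a 47.0-fold rise (5.55 ± 0.71; limma adjusted p = 1.06e-05). S100a8, a subunit of calprotectin, had 9.31 and 10.96 at 24 h, against 5.42, 3.59, 5.51 and 4.41 untreated (5.41 ± 0.93; adjusted p = 0.000328). S100a9, the other subunit, had 9.21 and 11.19 at 24 h, against 6.29, 4.67, 5.83 and 5.57 untreated (4.61 ± 0.78; adjusted p = 0.000281). In all 3 genes the lower 24 h array was the hair-rich one of batch 3. It was above every untreated array, which the rule for the largest rises required. Chil1, a chitinase-like protein, rose by 4.46 ± 0.76 (adjusted p = 0.000286) and Defb3, a β-defensin, by 4.34 ± 0.80 (adjusted p = 0.000803). Without 24 h array 2, 3 of the 17 were called, among them Lcn2 and Chil1.

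**Figure D3:**
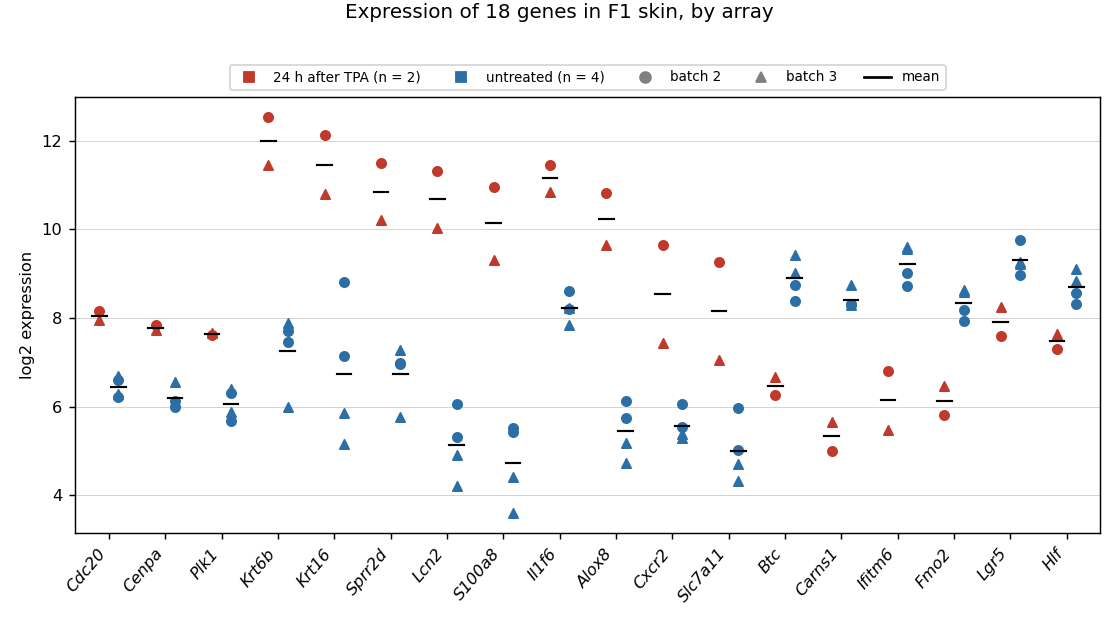
Log2 values of 18 genes in the 2 arrays at 24 h (left) and the 4 untreated arrays (right) of F1 skin, with the genes along the x axis, circles for batch 2, triangles for batch 3 and a line at each group mean. Both 24 h arrays lie above all 4 untreated arrays from Cdc20 to Slc7a11 and below them from Btc to Hlf. The largest rises and falls shown were picked by this rule. It also held for 352 of the 356 called genes, so the separation is no separate result.

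These antimicrobial proteins are made by keratinocytes and by neutrophils, so neutrophil markers are given beside them, and their part in these rises was not tested. Of 15 neutrophil marker genes 1 rose, where 1.14% of all genes rose, and the median change was 0.07. In 2 of the 15 both 24 h arrays lay above all untreated arrays and in none below, where 16.4% and 16.3% of all genes did. The mean over the 15 was 4.36 and 4.72 at 24 h, against 4.14 to 4.39 untreated, and 24 h array 1 lay within the untreated range. These means lay under the median log2 values of the 6 arrays, 5.44 to 5.555. The markers were thus dim, and flat values in them do not show that neutrophils were unchanged. The gene that rose was Cxcr2, the receptor that draws neutrophils to CXC chemokines, with 7.42 and 9.65 at 24 h, against 6.06, 5.29, 5.54 and 5.38 untreated (2.97 ± 0.59; limma adjusted p = 0.00207). The uncalled markers with the largest changes were Mmp9 and Clec4d. Over the 15 markers the changes ran from -0.16 to 2.97. Ngp and Csf3r were picked as examples, both lay within the untreated range, and they do not stand for the list. Ngp, a granule protein, was at 3.51 and 4.14 at 24 h, against 3.42 to 4.25 untreated. Csf3r, the granulocyte growth factor receptor, was at 4.62 and 4.48, against 4.13 to 4.88 untreated. No marker of macrophages and monocytes (16), T lymphocytes (10), B lymphocytes (7), NK cells (7) or Langerhans cells and class II (10) was called, with list medians of 0.11, -0.01, 0.10, -0.12 and -0.53 in that order. The means of B lymphocyte and NK cell markers also lay under those array medians, at 3.802 to 4.046 and 4.505 to 4.888. Cxcr2, which is also the 1 called of 14 CXC chemokine and receptor genes, was not called without 24 h array 2.

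Cytokine genes moved in few members. Il1f6, which encodes the epidermal cytokine IL-36α, had 10.85 and 11.45 at 24 h, against 8.19, 7.85, 8.62 and 8.22 untreated, a 7.64-fold rise (2.93 ± 0.50; limma adjusted p = 0.000286). It was the 1 called member of 12 in the IL-1 and IL-36 list, whose median was 0.64, where 1.14% of all genes rose. Il1b was at 1.01 ± 0.46 (adjusted p = 0.3) and Il1a at 0.90 ± 0.46 (adjusted p = 0.389), although both 24 h arrays lay above all untreated arrays in both genes. Among 16 CC chemokine genes Ccl22, which draws CCR4-bearing T cells, rose by 1.46 ± 0.37 (adjusted p = 0.0202). Ccl17 was at 1.64 (adjusted p = 0.158) and Ccl20 at 1.5 (adjusted p = 0.247). Bcl3, an IκB protein that works with NF-κB in the nucleus, had 7.48 and 9.05 at 24 h, against 6.16, 5.53, 6.00 and 5.65 untreated, and was the 1 called member of 10 in the NF-κB list (2.44 ± 0.37; adjusted p = 8.23e-05). Without 24 h array 2 none of Il1f6, Ccl22 and Bcl3 was called, and the call of Ccl22 was also lost without 24 h array 1.

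Some proteases and pore-forming proteins of the epidermis rose. Kallikreins, the serine proteases that cut the links between corneocytes, rose in 4 of 10 members, where 1.14% of all genes rose. In 9 of 10 both 24 h arrays lay above all untreated ones, where 16.4% of all genes did. Klk13 had 9.89 and 9.95 at 24 h, against 6.26, 5.49, 6.03 and 6.10 untreated, a 15.5-fold rise (3.95 ± 0.64; limma adjusted p = 0.000169). Klk6 rose by 3.48 ± 0.55 (adjusted p = 0.000133), Klk14 by 2.53 ± 0.51 (adjusted p = 0.00215) and Klk12 by 1.09 ± 0.30 (adjusted p = 0.0375). Klk13 and Klk6 were the 2 called without 24 h array 2. Gasdermins, the pore-forming proteins of lytic cell death, rose in 2 of 7 members. Gsdmc rose by 2.14 ± 0.45 (limma adjusted p = 0.00328) and Gsdma by 1.56 ± 0.43 (limma adjusted p = 0.0348). Neither was called without 24 h array 2, and the call of Gsdma was also lost without 24 h array 1. None of 20 matrix proteases and inhibitors was called, with a list median of 0.30.

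Among cyclooxygenases and lipoxygenases 1 of 12 rose and 1 fell, where 1.14% of all genes rose and 0.749% fell. Alox8, a lipoxygenase of arachidonic acid that is known as TPA-inducible in mouse skin, had 9.64 and 10.82 at 24 h, against 6.13, 4.72, 5.75 and 5.17 untreated, a 27.7-fold rise (4.79 ± 0.70; limma adjusted p = 3.1e-05). Its call was lost in 1 of 21 alternatives, batch 2 alone. Alox5, the enzyme of leukotriene synthesis, changed by -1.02 ± 0.27 (adjusted p = 0.0282), and its call was kept in 10 of 21 alternatives.

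Ligands of the EGF receptor moved both ways. Btc, betacellulin, had 6.67 and 6.27 at 24 h, against 8.38, 9.43, 8.75 and 9.03 untreated, and was 5.37-fold lower (-2.42 ± 0.32; limma adjusted p = 1.06e-05). Hbegf, the heparin-binding ligand, had 7.87 and 8.93 at 24 h, against 7.31, 6.20, 6.94 and 6.27 untreated (1.72 ± 0.49; adjusted p = 0.0448). The groups did not overlap in either gene, which the rule for the largest falls required of Btc. They were the 2 called of 11 ligands and receptors, where 1.89% of all genes were called. The call of Hbegf was kept in 11 of 21 alternatives, while that of Btc was lost in 1, batch 2 alone.

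Genes that oxidise xenobiotics and retinoids were called in 6 of 23 members, 3 higher and 3 lower, where 1.89% of all genes were called. The higher ones act on retinoids. Aldh1a3, which makes retinoic acid from retinaldehyde, rose by 1.69 ± 0.34 (limma adjusted p = 0.00217), Dhrs9, a retinol dehydrogenase, by 1.62 ± 0.40 (adjusted p = 0.014), and Crabp2, the carrier of retinoic acid, by 1.53 ± 0.45 (adjusted p = 0.0485). Fmo2, a flavin monooxygenase, had 6.46 and 5.80 at 24 h, against 7.93, 8.63, 8.18 and 8.60 untreated, and was 4.6-fold lower (-2.20 ± 0.55; adjusted p = 0.017). Cyp1a1, a cytochrome P450 of the aryl hydrocarbon response, fell by 1.60 ± 0.39 (adjusted p = 0.0137) and Cyp1b1, another, by 1.01 (adjusted p = 0.0341). Without 24 h array 2 none of the 23 was called. Without 24 h array 1 there were 2 called, both higher.

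Stress metabolism gave a few large rises. Slc7a11, the cystine transporter that feeds glutathione synthesis, had 7.06 and 9.26 at 24 h, against 5.97, 4.31, 5.01 and 4.69 untreated, an 8.97-fold rise (3.17 ± 0.65; limma adjusted p = 0.00255). Akr1b8, an aldo-keto reductase, rose by 2.15 ± 0.50 (adjusted p = 0.00885). They were the 2 called of 17 NRF2 targets, where 1.14% of all genes rose, and neither was called without 24 h array 2. Smox, spermine oxidase, rose by 2.05 ± 0.51 (adjusted p = 0.0149) and was the 1 called of 8 polyamine genes, a call lost without either 24 h array. Ndufa1, a subunit of respiratory complex I, rose by 1.18 ± 0.22 (adjusted p = 0.000803). It was the 1 called of 21 complex I genes, in 19 of which both 24 h arrays lay above all untreated arrays, where 16.4% of all genes did. The same held for 16 of 21 proteasome genes, 13 of 25 ribosome biogenesis genes and 12 of 17 sterol synthesis genes, none of them called, with medians of 0.50, 0.48 and 0.46.

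The 12 largest falls included transporters, receptors and protease inhibitors. Carns1, carnosine synthase, had 5.66 and 5.0 at 24 h, against 8.31, 8.75, 8.28 and 8.30 untreated, and was 8.44-fold lower (-3.08 ± 0.46; limma adjusted p = 4.61e-05). Ifitm6, an interferon-induced transmembrane family member, had 5.48 and 6.80 at 24 h, against 9.01, 9.59, 8.72 and 9.56 untreated (-3.08 ± 0.73; adjusted p = 0.0108). Slc26a7, an anion exchanger, had 4.92 and 7.31 at 24 h, against 7.91, 9.91, 8.53 and 9.31 untreated (-2.80 ± 0.71; adjusted p = 0.0188), with changes of -0.91 in batch 2 and -4.69 in batch 3. In these 3 genes the 24 h arrays lay below every untreated array, which the rule that picked the largest falls required. Serpina3b fell by 2.38 ± 0.56 (adjusted p = 0.0108), Npr3, the natriuretic peptide clearance receptor, by 2.08 ± 0.54 (adjusted p = 0.0205), and Slc43a1, an amino acid transporter, by 1.96 ± 0.34 (adjusted p = 0.000365). Npy1r, a neuropeptide Y receptor, fell by 1.94 ± 0.44 (adjusted p = 0.00744), Wfdc21 by 1.94 ± 0.32 (adjusted p = 0.00022) and Slc6a4, the serotonin transporter, by 1.89 ± 0.30 (adjusted p = 0.000156). Carns1, Slc43a1 and Slc6a4 were called in 20 of 21 alternatives. The calls of Ifitm6, Serpina3b, Npr3 and Npy1r were lost without either 24 h array, and those of Slc26a7 and Wfdc21 without 24 h array 1.

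Hair follicle stem cell genes had 2 falls and no rise among 15 members, where 0.749% of all genes fell. In 9 of them both 24 h arrays lay below all untreated arrays, where 16.3% of all genes did, and the list median was -0.64. Lgr5, a Wnt pathway receptor of cycling follicle stem cells, had 8.24 and 7.60 at 24 h, against 9.76, 9.26, 8.98 and 9.22 untreated. Its change was -1.38 ± 0.36 (limma adjusted p = 0.0201). Fgf18, a factor that holds follicles at rest, had 6.04 and 7.01 at 24 h, against 7.84, 8.03, 7.84 and 7.84 untreated (-1.36 ± 0.38; adjusted p = 0.0372). Each call was lost when either 24 h array was left out, and both were absent from the calls without the 2 hair-rich arrays, when the list median was -0.89 and 1 other member was called. The part of the hair-cycle transcripts given above in these falls was not tested.

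Single members fell in 3 further lists, where 0.749% of all genes fell. Hlf, a clock-controlled transcription factor, had 7.63 and 7.31 at 24 h, against 8.31, 8.83, 8.57 and 9.10 untreated (-1.23 ± 0.33; limma adjusted p = 0.0268), as the 1 called of 15 clock genes. Per1 was at -0.85 (adjusted p = 0.108) and Bhlhe40 at 1.05 (adjusted p = 0.0505). Mrgprb2, the mast cell receptor for basic secretagogues, had 3.95 and 3.12 at 24 h, against 4.50, 5.27, 3.98 and 5.26 untreated (-1.22 ± 0.32; adjusted p = 0.0256), as the 1 called of 11 mast cell genes, whose median was 0.13. Cyp2g1, a cytochrome P450 counted with the sebaceous genes, had 10.12 and 8.94 at 24 h, against 11.46, 11.22, 11.48 and 11.46 untreated (-1.88 ± 0.54; adjusted p = 0.0463). It was the 1 called of 21, and its call was kept in 11 of 21 alternatives. The call of Hlf was lost without either 24 h array, and that of Mrgprb2 without 24 h array 2. Mrgprb2 was dim, under the median log2 value of every array compared. No call was made among collagens (14), fibroblast (9), endothelial (8), melanocyte (11), adipocyte (13) or interferon response genes (16).

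Liver transcripts were higher in the 24 h arrays. Of 23 measured, 3 rose, where 1.14% of all genes rose. In 17 of the 23 both 24 h arrays lay above all untreated ones, where 16.4% of all genes did. Alb, serum albumin, had 12.65 and 11.90 at 24 h, against 7.44, 9.92, 8.02 and 7.43 untreated (4.07 ± 0.99; limma adjusted p = 0.0136). Ahsg, the plasma protein fetuin-A, had 10.35 and 8.45 at 24 h, against 4.91, 5.62, 5.12 and 4.71 untreated (4.31 ± 0.96; adjusted p = 0.00588). Apoa1, an apolipoprotein, had 10.14 and 8.30 at 24 h, against 6.21, 6.17, 6.47 and 5.94 untreated (3.02 ± 0.81; adjusted p = 0.0281). All 3 are plasma protein genes that skin is not known for, and 24 h array 1 was the higher in each. The count of liver transcripts called moved with the arrays in the fit and the scaling: it was 8 with cyclic loess, 8 without the 2 narrow arrays (F1 at 72 h and Spret/Ei at 12 h, whose values span less than those of other arrays), 13 with the 6 arrays alone and 18 with F1 arrays alone. Without 24 h array 2 or without untreated array 4, 1 of the 23 was called, and none without the 2 hair-rich arrays. Without 24 h array 1 the median change of the liver list was 1.19, and without 24 h array 2 it was 3.05. In the same order the medians were 1.61 and 1.11 for mitosis and 3.11 and 2.07 for small proline-rich proteins. For antimicrobial genes they were 1.72 and 1.57. The part of the liver transcripts in the other changes was not tested. No pancreas transcript (11) was called. The hair shaft keratin and inner root sheath lists had medians of 1.10 and 1.78 with no call. The mean of the hair shaft keratins was 8.10 and 5.26 at 24 h, against 8.21, 4.39, 4.95 and 4.43 untreated, so the groups overlapped. Krt71, an inner root sheath keratin, had 11.30 and 7.68 at 24 h, against 11.05, 4.71, 5.18 and 5.79 untreated.

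At 24 h, 23 genes were higher and 18 lower than at 12 h in F1 skin, 0.218% of the genes tested. This comparison does not use the untreated arrays. The 12 h arrays are labelled as TPA-treated, but the treatment protocol in the labels does not list 12 h among its times, so that they had the same single dose is not stated. Among matrix proteases and inhibitors 5 of 20 were lower at 24 h and none higher, where 0.0956% of all genes were lower. Mmp13, collagenase 3, had 4.72 and 6.99 at 24 h, against 9.92 and 10.20 at 12 h (-4.20 ± 0.76; limma adjusted p = 0.00296), and Mmp3, stromelysin 1, had 6.84 and 6.68 at 24 h, against 10.01 and 10.58 at 12 h (-3.54 ± 0.74; adjusted p = 0.0205). Tslp, an epithelial cytokine, had 4.61 and 6.64 at 24 h, against 9.66 and 9.54 at 12 h (-3.97 ± 0.57; adjusted p = 0.000245). In all 3 genes both 24 h arrays were far under both 12 h arrays. Pdpn, a mucin-type membrane glycoprotein, was lower by 2.74 log2 units, Pglyrp2, a peptidoglycan amidase, by 2.49 and Ccl2, a monocyte chemokine, by 2.44.

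Clock genes were among those higher at 24 h than at 12 h. Of 15 clock and output genes 7 were higher at 24 h (Per1, Per2, Per3, Cry2, Tef, Hlf and Ciart) and 1, Npas2, was lower, where 0.122% of all genes were higher. Per2, a repressor in the clock loop, had 7.13 and 7.08 at 24 h, against 4.84 and 5.01 at 12 h (2.18 ± 0.36; limma adjusted p = 0.00132), and its untreated values were 7.27, 7.48, 8.22 and 7.19. The labels give no time of day, and time of day and time after TPA cannot be told apart here. Mt4, a metallothionein of stratified epithelia, had 10.20 and 9.12 at 24 h, against 6.89 and 6.34 at 12 h (3.04 ± 0.47; adjusted p = 0.000414). Alb was higher by 5.52, Serpinb13, an epidermal protease inhibitor, by 2.37, Adh6a, an alcohol dehydrogenase, by 2.26 and Ndufa4l2, a hypoxia-inducible mitochondrial protein, by 2.09. The 41 calls fell to 0 without 24 h array 1, to 0 without 12 h array 1 and to 8 without 12 h array 2. They numbered 97 without 24 h array 2.

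Set beside the other times, each against the same 4 untreated arrays, mitosis genes had a median change of -0.69 and -0.60 at 4 and 6 h, 0.51 at 12 h, 1.37 at 24 h, 1.22 at 48 h, and 0.16 and 0.60 at 72 and 1008 h. The test between 24 h and 12 h called 2 of the 30 higher, Cenpf and Nek2, where 0.122% of all genes were higher. DNA replication genes had a median of 0.58 with 1 of 25 called higher at 24 h, against 0.82 with 7 called higher at 12 h, when 2.48% of all genes were. No replication gene was called in the test between 24 h and 12 h, whose median was -0.36. Stress keratins had medians of 3.17 and 3.62 at 4 and 6 h, 4.14 at 12 h, 3.48 at 24 h, 2.89 at 48 h, and 1.79 and 1.89 at 72 and 1008 h. Hair follicle stem cell genes were at -0.64 at 24 h and -0.62 at 12 h. The protocol's list of times leaves out 1008 h as well as 12 h, and whether those mice had the same single dose is not stated. These groups differ in their number of arrays and share the untreated arrays, so neighbouring times are not independent. At 72 h, 1 of the 2 arrays is the narrow F1 array, with an interquartile range of 2.47 log2 units. The medians at 72 h rest in part on it.

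**Figure D4:**
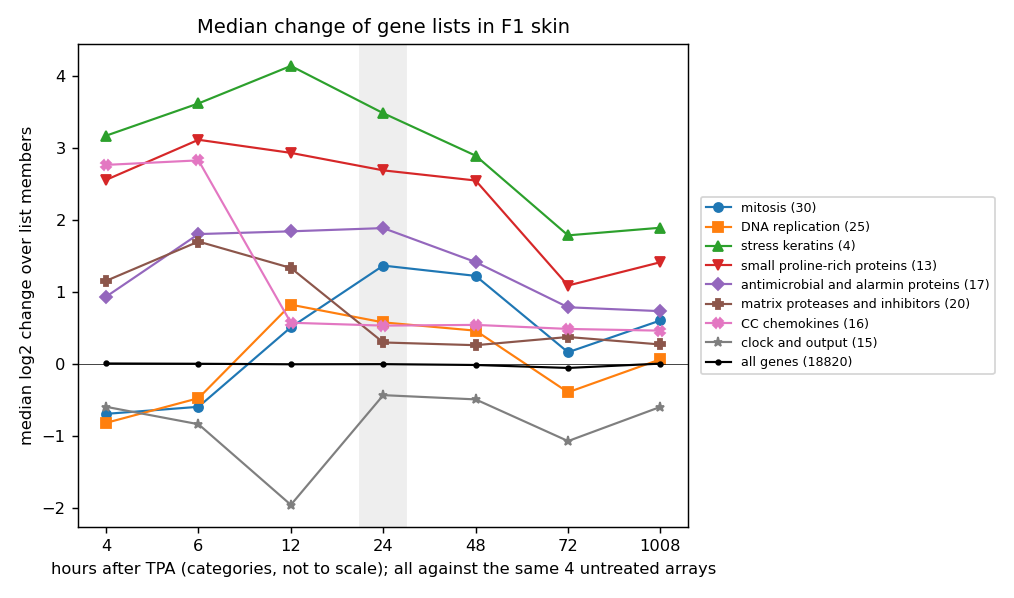
Median log2 change of each gene list in F1 skin against the 4 untreated arrays (y axis) at 4, 6, 12, 24, 48, 72 and 1008 h (x axis, evenly spaced), with 24 h shaded and the median of all genes in black. The mitosis line is highest at 24 and 48 h, the DNA replication line at 12 h, and the stress keratin line stays between 1.79 and 4.14. The values at 72 h include 1 narrow array of 2.

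The F1 response at 24 h was set against those of the parent strains by testing the difference of the changes. FVB/N skin had 1032 calls at 24 h (5.48%) and Spret/Ei skin 49 (0.26%), with 3 against 3 and 2 against 2 arrays. Of the genes called in F1, 264 (74.2%) were called in the same direction in FVB/N, which is 25.6% of the FVB/N calls. The difference itself was called for 2 genes against FVB/N (0.0106%) and for none against Spret/Ei, where 333 genes had an unadjusted p under 0.05 in limma. Mitosis genes changed by a median of 1.37 in F1, 1.32 in FVB/N and 0.97 in Spret/Ei, with 25, 27 and 2 of 30 called higher in that order, where 1.14%, 2.85% and 0.191% of all genes were. Lcn2 changed by 5.55 ± 0.71 in F1, 4.75 ± 0.67 in FVB/N and 4.27 ± 0.83 in Spret/Ei, and the difference between F1 and FVB/N was 0.80 ± 0.97. These errors are wide, and a difference that was not called does not show equal responses. Gsdmc changed by 2.14 ± 0.45 in F1, 3.84 ± 0.42 in FVB/N and -0.01 ± 0.53 in Spret/Ei, and neither difference was called (adjusted p = 0.999 against FVB/N and 1 against Spret/Ei).

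Slc15a2 and Igfl3 were the 2 genes whose change differed between F1 and FVB/N. Slc15a2, a transporter of small peptides, had 7.81 and 7.97 at 24 h in F1, against 7.41, 7.24, 7.53 and 7.07 untreated. In FVB/N it had 6.20, 5.40 and 6.76 at 24 h, against 7.74, 7.84 and 7.81 untreated. Its change was thus 0.58 ± 0.31 in F1 and -1.68 ± 0.29 in FVB/N, a difference of 2.25 ± 0.42 (limma adjusted p = 0.0265). Igfl3, a member of the IGF-like secreted family, had 6.87 and 6.74 at 24 h in F1, against 6.40, 6.52, 5.98 and 5.79 untreated. In FVB/N it had 8.92, 8.48 and 8.72 at 24 h, against 4.77, 4.56 and 4.91 untreated. The difference was -3.33 ± 0.61 (adjusted p = 0.0265), from changes of 0.63 ± 0.44 in F1 and 3.97 ± 0.42 in FVB/N, while Spret/Ei changed by 0.01 ± 0.52. Neither gene was among the 356 called in F1. All FVB/N arrays were in batch 1 and no F1 array was, so levels were not compared between the strains, and probes match Spret/Ei alleles to a degree that was not examined. With each single array left out in turn, the difference of Slc15a2 stayed between 1.89 and 2.57 and that of Igfl3 between -3.53 and -3.19, but the adjusted p ranged up to 0.547 for both without 24 h array 1 of F1.

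**Figure D5:**
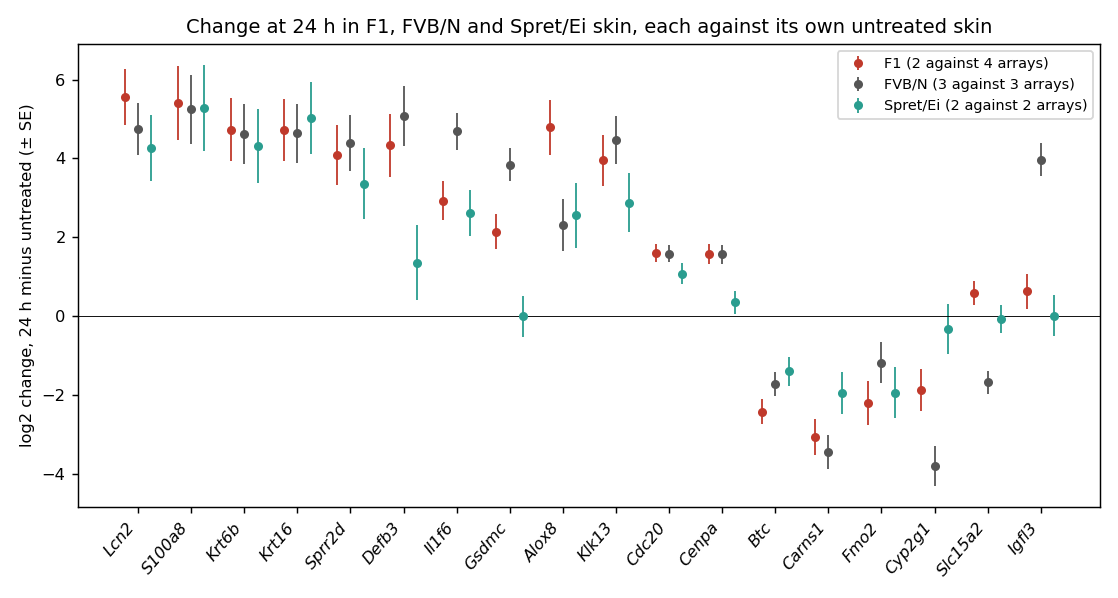
Log2 change (24 h minus untreated, y axis) ± SE of 18 genes (x axis) in F1, FVB/N and Spret/Ei skin, each against its own untreated skin. F1 and FVB/N bars overlap for Lcn2, S100a8, Krt6b, Krt16, Cdc20 and Cenpa. They stand apart for Slc15a2 and Igfl3, and also for Gsdmc, whose difference was not called.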

How the data were processed

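RNA from dorsal skin was hybridised to 1-colour arrays of 35556 probe sets. The deposited table holds log2 values, which the authors made with RMA per the submitters' processing notes, where no version is given; other steps are not given in the sources used here. Every column matched 1 sample title, and 0 columns belonged to another series. Of the probe sets, 21218 had 1 gene symbol, 1881 several and 12457 none here; genes with several probe sets were represented by the one with the highest mean, which left 18820 genes. Levels were not compared between genes. Limma 3.58.1 (R 4.3.3) was fitted to the 66 arrays with a labelled strain and time, with 27 group means and a term for batch 3 against batch 2, and left 38 residual degrees of freedom. The 3 arrays without such labels were not used; no 2 arrays held identical values. Tests were two-sided. An exact permutation of 2 against 4 arrays cannot go below p = 0.0667 on 1 side, or 0.133 when that is doubled for 2 sides, so none is given. On simulated data with this design, 90% of 50 genes changed by 1.5 log2 units were recovered, 96% at 2 and 100% at 3. There 1 of 18620 unchanged genes was called. The simulated noise was independent between genes and held none of the hair, liver and muscle differences between these arrays. The simulation thus checks the steps and does not give the error rates of the real calls. Tables and figures were made with python 3.11.15, pandas 2.3.3 and matplotlib 3.10.9.

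The genes named are the 12 largest rises and the 12 largest falls with both 24 h arrays beyond all untreated arrays, up to 5 called members of each of 59 gene lists (and uncalled members with the largest changes where fewer than 2 were called), and the 6 largest differences in each direction of the other comparisons; Hmmr, Krt17, Il1b, Csf3r, Ngp, Krt5, Krt1, Cyp1b1, Cenpf, Nek2, Per3, Cry2, Tef, Ciart, Npas2, the uncalled mitosis genes and the genes under other observations stand outside or beside that rule. Not every gene that these rules pick is named, and uncalled members of several lists are left out. Some lists are not described, among them p53 targets, protein kinase C and claudins. The comparison, the lists and these rules were chosen with earlier results of these data known. Of 911 listed genes 822 were measured. Lists are described by counts and medians, without a set test. Alternatives changed the scaling, the filter, the arrays in the fit, the batch term and the fold threshold, and left out each array in turn. Same-numbered 24 h and untreated arrays deviated together with r = 0.385 and 0.145, but there are 2 such pairs, each spans 2 batches, and the labels do not pair them, so the comparison was left unpaired.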

Additional observations from a re-analysis of the deposited data

Results flagged for a closer look

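Among the 4 untreated F1 arrays, 12 of 147 gene or list values named here had 1 array far from the other 3, by the gap to its nearest neighbour as a share of the range (8.16%; chance flags about 1 in 20). The share was 0.925 for Dsc2, 0.83 for Krt71 and 0.881 for the inner root sheath mean, with untreated array 1 the high one in each. It was 0.862 for Csf3r, where untreated array 3 was high. It was 0.946 for Carns1, 0.974 for Fgf18 and 0.901 for Per1, with untreated array 2 high in each, and 0.903 for Cyp2g1, with untreated array 2 low. It was 0.866 for Per3, 0.885 for Serpinb13, 0.892 for Ndufa4l2 and 0.925 for Nek2.

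Between strains, the test of the difference itself called 2 genes: Slc15a2, whose change at 24 h was 2.25 log2 units higher in F1 than in FVB/N, and Igfl3, whose difference, F1 minus FVB/N, was -3.33.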

How the results depend on the processing

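For F1 24 h against untreated, changing the scaling, the variance settings, the probe filter, the fold threshold, the batch term or the other arrays in the fit gave 318 to 511 calls, against 356. Batch 2 alone gave 1 call and batch 3 alone 1279, where 1 treated array stands against 2 untreated ones; in batch 2 alone without the 2 narrow arrays (F1 at 72 h and Spret/Ei at 12 h, whose values span less than those of other arrays), added after seeing the data, 218 were called. The replicate number as a block, which the labels do not tie to shared animals, gave 239 calls, 174 higher and 65 lower. Leaving out 1 array gave 70 to 472 calls, and leaving out the 2 hair-rich arrays, also added, 196. For 24 h against 12 h, the 41 calls became 65 with cyclic loess, 103 with F1 arrays alone, 87 without the narrow arrays, 1 in batch 2 alone, 310 in batch 3 alone, 15 in batch 2 without the narrow arrays and 32 with the replicate block, and ranged from 0 to 97 with 1 array left out. For F1 against FVB/N, the 2 calls became 16 with cyclic loess, 6 without dim probe sets, 23 without the narrow arrays, 0 without FVB/N controls 2 and 3, 1 with the replicate block and 0 to 10 with 1 array left out. For F1 against Spret/Ei the count was 0 in every alternative run. The causes were not tested. Of 69 called genes named, 0 kept their call in all alternatives and 0 reversed. The number of arrays, 2 at 24 h, limits all of these results.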

Other observations

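The genes of this paragraph and the next lie outside the lists and were picked from the calls after their values were seen, so they are examples and say nothing of how other genes of their pathways moved. Pgk1, a glycolytic kinase, was 3.55-fold higher, Pfkfb4, a regulator of glycolysis, 3.37-fold, Hk2, which starts the pathway, 2.83-fold, Pfkl 2.6-fold, Tpi1 2.29-fold and Pkm 2.27-fold. Slc16a3, which exports lactate, was 2.67-fold higher and Vegfa, the vascular growth factor, 2.46-fold. Mgarp, Fam162a and Ndufa4l2, all known as hypoxia-inducible, were 3.52-fold, 2.81-fold and 2.31-fold higher.

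Gjb2, connexin 26, was 9.25-fold higher, and Gjb6, connexin 30, 4.09-fold. Atp12a, a proton and potassium pump, was 7.73-fold higher, Slc26a9, an anion transporter, 4.19-fold, and Atp1b1, a sodium pump subunit, 3.69-fold. For each of these genes the highest untreated array was the hair-rich array 1, which came near the 24 h arrays in some. Gjb2 had 10.467 and 11.025 at 24 h, against 9.897, 6.101, 7.536 and 6.613 untreated. Atp1b1 had 10.383 and 10.233 at 24 h, against 10.019, 7.706, 8.213 and 7.757 untreated. The calls of this paragraph were not followed through the alternatives. Rbp2, a retinol-binding protein, was 6.75-fold higher, Aox4, a retinaldehyde-oxidising enzyme, 5.03-fold, and Stra6, the retinol transporter, 3.67-fold. Among the falls, Ccn2 was 3.24-fold lower, Igfbp5 3.01-fold, Rspo3, a Wnt agonist, 2.91-fold, Rgmb 2.39-fold, and the Wnt antagonists Notum and Dkk2 2.38-fold and 2.37-fold.

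Of 303 microRNA genes measured, 0 were called higher and 6 lower (1.98%, where 0.749% of all genes were called lower; 2524 of all genes had an unadjusted p under 0.05 in limma). The probe sets read precursor or host transcripts and do not measure mature microRNAs. The changes were -1.58 for Mirlet7c-1, -1.43 for Mir30c-2, -1.31 for Mir23b, -1.29 for Mir365-1, -1.28 for Mir16-1 and -1.05 for Mir99a.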
